A study of Mus musculus with 7 samples.

Results

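The genes described here are 44 genes of DNA replication licensing and of the replication fork, of 33696 genes in the count table of cultured BB-p53n oligodendrocyte progenitor cells (OPCs). They were chosen by symbol, from the subunits of the origin recognition complex, the licensing factors, the MCM2-7 helicase, the factors that activate it, the replicative polymerases and primase, the sliding clamp and its loader, the RPA subunits, the enzymes of nucleotide supply and the genes of S-phase entry. The starting material was primary OPCs of *Trp53*fl/fl C57BL/6 pups, male or female and 5 to 7 days old, selected through CD140a. A PDGFB-IRES-CRE retrovirus made them BB-p53n OPCs. Every cell that took up the virus was meant to lose *Trp53* and to express PDGFB. Their nuclei were profiled by snRNA-seq before the injection of such cells into recipient brains, as 1 library from culture with no replicate. Brains that later carried tumors are part of the study but were not analysed here. Within the cutoffs of 2000 and 8000 detected genes, 8917 of 10047 barcodes were kept, with a median of 13771 unique molecular identifiers (UMIs, each counting 1 captured transcript) and 4718 genes per nucleus. This is a much wider set than the study analysed, since the paper lists 1954 nuclei of this library after its own filtering. The same number, 1954, of the nuclei kept here had at most 5% mitochondrial UMIs. The 44 genes took 487277 of the 141138093 UMIs of these nuclei, or 0.345%.

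DNA replication is prepared in G1, when the origin recognition complex binds origins and Cdc6 and Cdt1 load the MCM2-7 helicase there in an inactive form, a step called licensing. In S phase, Mcm10, Cdc45 and the GINS complex turn the helicase on, and polymerases, the clamp, its loader and RPA then copy the DNA behind it. Many of these genes are known targets of the E2F transcription factors. The pocket proteins hold these factors back until cyclins and their kinases, cyclin E among them, release them.

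Promoters of 5 of the 44 genes are shown from 200 bases before to 30 bases after the annotated start, because they hold the largest number of E2F motifs (*Mcm5* and *Mcm6*), belong to the origin recognition complex (*Orc1*) or belong to the genes with the largest difference between proliferating and other nuclei (*Cdc45* and *Rrm2*). They were read from GRCm39 at chr8:75835940-75836169 (plus strand), chr1:128287423-128287652 (minus strand), chr4:108436420-108436649 (plus strand), chr16:18631463-18631692 (minus strand) and chr12:24757611-24757840 (plus strand), with capitals at E2F motifs and CCAAT boxes on either strand.
Mcm5: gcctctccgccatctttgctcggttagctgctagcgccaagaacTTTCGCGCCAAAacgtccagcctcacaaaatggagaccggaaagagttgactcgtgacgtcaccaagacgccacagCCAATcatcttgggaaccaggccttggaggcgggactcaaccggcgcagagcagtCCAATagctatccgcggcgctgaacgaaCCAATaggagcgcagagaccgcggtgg
Mcm6: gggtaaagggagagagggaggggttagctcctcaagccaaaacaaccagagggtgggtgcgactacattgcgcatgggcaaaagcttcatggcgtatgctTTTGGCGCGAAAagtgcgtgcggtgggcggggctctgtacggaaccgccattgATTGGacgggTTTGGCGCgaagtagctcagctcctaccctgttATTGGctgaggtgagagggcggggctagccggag
Orc1: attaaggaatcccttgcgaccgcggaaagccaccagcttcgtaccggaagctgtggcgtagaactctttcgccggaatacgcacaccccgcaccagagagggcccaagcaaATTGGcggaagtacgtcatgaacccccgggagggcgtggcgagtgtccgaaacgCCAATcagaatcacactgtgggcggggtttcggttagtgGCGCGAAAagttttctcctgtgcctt
Cdc45: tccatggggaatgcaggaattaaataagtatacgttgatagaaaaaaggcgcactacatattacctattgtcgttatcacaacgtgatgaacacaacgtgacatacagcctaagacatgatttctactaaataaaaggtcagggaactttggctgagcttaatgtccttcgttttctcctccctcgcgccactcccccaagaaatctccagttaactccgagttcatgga
Rrm2: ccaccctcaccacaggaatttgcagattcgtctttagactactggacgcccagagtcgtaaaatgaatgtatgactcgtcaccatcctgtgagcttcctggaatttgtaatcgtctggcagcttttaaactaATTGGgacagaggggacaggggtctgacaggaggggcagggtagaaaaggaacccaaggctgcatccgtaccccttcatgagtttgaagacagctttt

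The E2F motif was searched as TTTCCCGC, TTTCGCGC, TTTGCCGC or TTTGGCGC on both strands, and it was found in this window for 10 of the 44 genes (22.7%) against 495 of all 21770 promoters read in the same way (2.27%). The 10 genes were *Orc1*, *Orc3*, *Mcm3*, *Mcm4*, *Mcm5*, *Mcm6*, *Gins1*, *Pola1*, *Pole2* and *Dtl*. In *Mcm5* the matches began 156 and 152 bases before the start and overlapped, and *Mcm6* had an overlapping pair at -100 and -96 and another match at -37. The CCAAT box (CCAAT, both strands) was found for 23 genes (52.3%) against 34.8% of all promoters, and the CHR motif (TTTGAA, both strands), which is known from promoters of mitotic genes, for 2 genes (4.55%) against 12.9%. With only the last 7 letters of each E2F motif, 16 genes (36.4%) and 9.10% of all promoters had a match. No E2F match was found in the windows of *Cdc45* and *Rrm2*, which says only that these letters are not there.

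As a check of the labels, *Trp53* was counted 3496 times in the kept nuclei (24.8 CPM, with a 95% exact Poisson interval of 24.0 to 25.6, where CPM scales a gene's UMIs by those of all genes), and mouse *Pdgfb* 75 times (0.531 CPM, 0.418 to 0.666). Counts are summed over a gene and do not show which exons of *Trp53* were transcribed. The low count of mouse *Pdgfb* does not show the PDGFB expression that the label names. Whether transcripts of the retrovirus could be counted as mouse *Pdgfb* was not tested. The OPC label was checked with 7 OPC markers, which were all present at levels such as 234 CPM for *Pdgfra*, 674 for *Olig1* and 88.2 for *Sox10* in nuclei without *Top2a* and *Mki67*, and 264, 615 and 89.6 in nuclei rich in both. The summed level of 6 neuron markers was 54.9 and 39.7 CPM in those groups, of 5 astrocyte markers 15.3 and 15.7, of 5 microglia markers 7.35 and 6.79, of 4 endothelial markers 6.45 and 6.85, of 5 fibroblast and pericyte markers 0.150 and 0.387 and of 5 oligodendrocyte markers 122 and 105. *C1qa* of microglia and *Cldn5* of endothelial cells had no UMI in either group, but the other markers of these 2 lists were counted. Over both groups, the microglia markers *P2ry12*, *Cx3cr1*, *Csf1r* and *Aif1* had 522, 155, 56 and 1 UMIs. The endothelial markers *Pecam1*, *Flt1* and *Cdh5* had 513, 214 and 7 UMIs.

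The comparison asked which of the 44 genes differ between nuclei with and without transcripts of *Top2a*, the topoisomerase that untangles sister DNA, and *Mki67*, which encodes the proliferation antigen Ki-67. The 669 nuclei with no UMI of either gene, called zero nuclei here, had 6667496 UMIs and a median of 9287 per nucleus, and the 5321 nuclei with 3 or more UMIs of each, called high nuclei, had 100868489 UMIs and a median of 16901. Mitochondrial transcripts took 6.60% and 6.24% of the UMIs. Both groups come from the same library, so no test was run between them, and the intervals printed below are exact 95% intervals of counting error only. The remaining 2927 nuclei lay between.

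The genes of DNA replication were higher in high nuclei almost throughout, but unevenly. Together they had 2126 CPM in zero nuclei, 3463 in the nuclei between and 3537 in high nuclei, a ratio of high to zero of 1.66 (1.64 to 1.69). The ratio was above 1 for 42 of 44 genes and for 44.6% of 15357 genes with 50 or more UMIs over both groups together, and their median ratio was 1.62 against 0.97 over all those genes. At least 2-fold higher in high nuclei were 14 of the 44 genes, against 4.14% of all genes and 3.46% of those with 1000 or more UMIs, and 26 were at least 1.5-fold higher, against 8.0%. None was 2-fold lower, against 4.29%. Nuclei of the zero group were shallower than high nuclei. When all nuclei were thinned to 5000 UMIs before they were grouped, the ratio of the summed level was 1.36 and 7 genes were at least 2-fold higher, against 2.99% of all genes in those groups. The 7 genes that fell below 2 in this way were *Mcm5*, *Gins1* (1.41), *Gins3* (1.92), *Rfc4* (1.84), *Rpa2* (1.68), *Tyms* (1.77) and *Uhrf1*.

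**Figure D1:**
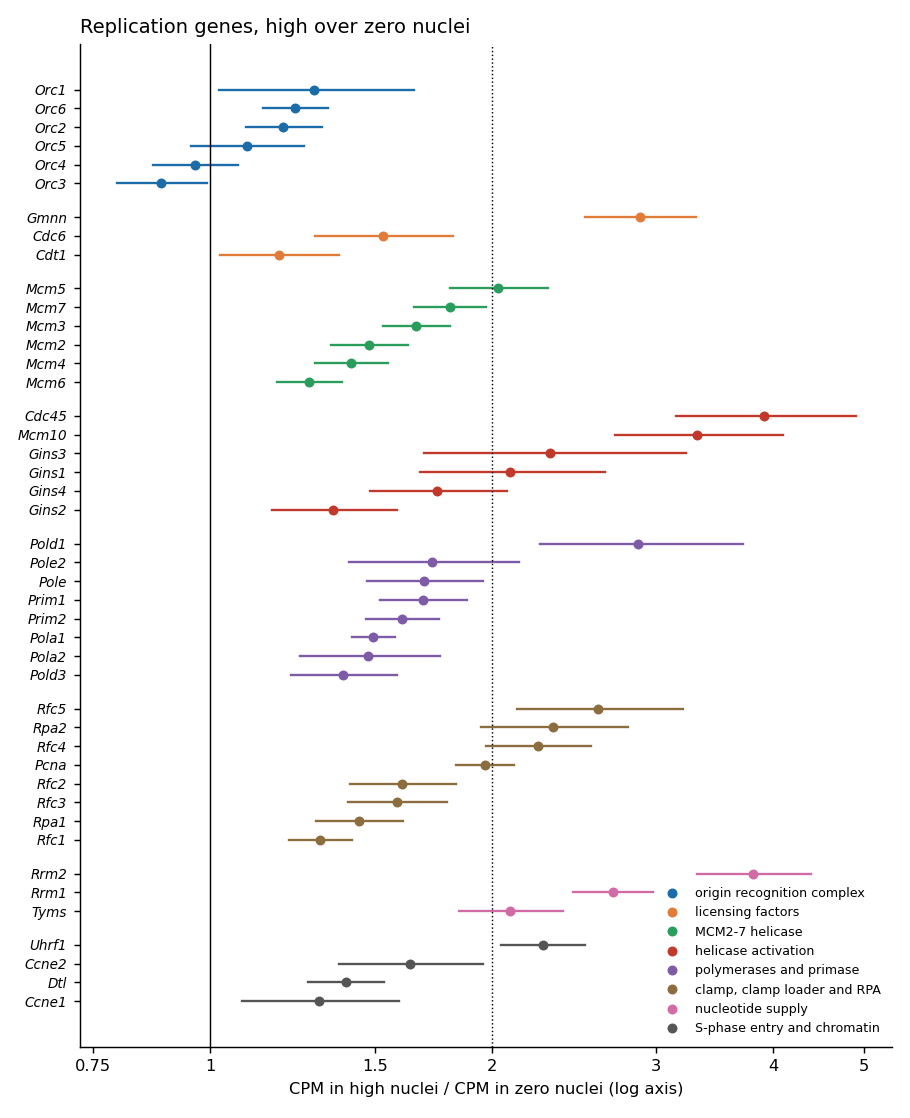
CPM in high nuclei over CPM in zero nuclei for each of the 44 genes, grouped by role, on a log axis, with exact 95% intervals of counting error as lines. The solid line marks 1 and the dotted line 2. *Cdc45* (3.90) and *Rrm2* (3.81) lie farthest to the right, and *Orc4* (0.96) and *Orc3* (0.89) are the only points left of 1.

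The origin recognition complex, which marks the places where replication can start, was nearly level. Its 6 subunits had 322 CPM in zero and 356 CPM in high nuclei, a ratio of 1.11 (1.06 to 1.16), and no subunit reached 1.5. *Orc1*, the subunit whose protein is known to be periodic in the cell cycle, had 11.1 CPM in zero, 16.1 in intermediate and 14.3 in high nuclei, a ratio of 1.29 (1.02 to 1.65), and the ratio was 0.76 in nuclei without a *Pdgfra* UMI. *Orc6* had 96.7, 121 and 119 CPM (ratio 1.23) and *Orc2* 70.6, 87.3 and 84.6 CPM (ratio 1.20). *Orc5* had 32.7, 33.8 and 35.8 CPM and *Orc4* 58.8, 61.0 and 56.6 CPM, and both intervals of the ratio, 0.95 to 1.26 and 0.87 to 1.07, held 1. *Orc3* was the lowest of the 44 genes, with 51.6, 49.4 and 45.7 CPM and a ratio of 0.89 (0.79 to 0.99). In nuclei without a *Pdgfra* UMI the ratios of *Orc3* and *Orc4* were both 1.05, and *Orc5* was at 0.97 with nuclei thinned before grouping.

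The 3 licensing factors went apart. *Gmnn* encodes geminin, which binds Cdt1 and blocks a second round of licensing, and its level was 32.5 CPM in zero, 75.1 in intermediate and 93.7 in high nuclei, a ratio of 2.88 (2.52 to 3.31). *Cdt1* itself had 29.4, 43.8 and 34.8 CPM, a ratio of 1.18 (1.02 to 1.37). *Cdc6*, the ATPase that loads the helicase together with Cdt1, had 21.6, 50.2 and 33.0 CPM, a ratio of 1.53 (1.29 to 1.82), which turned to 0.82 when nuclei were thinned before they were grouped. For both loaders the nuclei between were therefore above the high nuclei, whereas the inhibitor was highest in high nuclei.

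The 6 genes of the MCM2-7 helicase had 450 CPM in zero and 706 CPM in high nuclei, a ratio of 1.57 (1.51 to 1.63). They ranged from *Mcm5* at 2.03 (1.80 to 2.29), with 42.1, 82.6 and 85.6 CPM, down to *Mcm6* at 1.28 (1.18 to 1.38), with 96.0, 146 and 122 CPM. *Mcm7*, *Mcm3*, *Mcm2* and *Mcm4* lay between at 1.80, 1.66, 1.48 and 1.41. Although the subunits form 1 ring of equal parts, the intervals of *Mcm5* and *Mcm6* did not overlap. With nuclei thinned before grouping, the ratio of *Mcm5* was 1.28 and that of *Mcm6* 0.98. *Mcm5* was the last gene past a ratio of 2, and *Pcna*, at 1.97 (1.83 to 2.11), was the first below it.

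The factors that turn the loaded helicase on differed more than the helicase itself. The 6 genes had 94.2 CPM in zero and 212 CPM in high nuclei, a ratio of 2.25 (2.08 to 2.44), and 4 of them passed 2. *Cdc45*, which travels with MCM2-7 and GINS as the active helicase, had the largest ratio of the 44 genes, with 12.7 CPM (10.2 to 15.8) in zero, 36.5 in intermediate and 49.8 CPM (48.4 to 51.2) in high nuclei, 3.90-fold higher (3.15 to 4.90). *Mcm10*, which is needed for the helicase to start moving, had 14.5, 37.2 and 48.2 CPM and a ratio of 3.31 (2.71 to 4.09), which was 2.01 with nuclei thinned before grouping. The 4 GINS genes spread from *Gins3* at 2.31 (1.69 to 3.23) and *Gins1* at 2.09 (1.68 to 2.64) to *Gins4* at 1.75 and *Gins2* at 1.35. A UMI of *Cdc45* was found in 44 of 633 zero nuclei (6.95%, exact binomial interval 5.10 to 9.22) and in 1179 of 5299 high nuclei (22.2%, 21.1 to 23.4) once each nucleus was thinned to 5000 UMIs, and in 10.6% and 56.3% without thinning. Thinning left out 36 zero and 22 high nuclei as too shallow. No cell type without *Cdc45* was called in this library, so no background share is given.

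The polymerase and primase genes had 459 CPM in zero and 723 CPM in high nuclei, a ratio of 1.58 (1.52 to 1.64). *Pold1*, the catalytic subunit of polymerase delta, stood above the other 7 with 10.0, 22.5 and 28.8 CPM and a ratio of 2.87 (2.25 to 3.71), which was 1.86 in nuclei with at most 5% mitochondrial UMIs. *Pold3*, an accessory subunit of the same enzyme, was the lowest at 1.39 (1.22 to 1.58). The catalytic subunits of polymerase epsilon and alpha, *Pole* and *Pola1*, had ratios of 1.69 and 1.49, their partners *Pole2* and *Pola2* 1.73 and 1.48, and the primase genes *Prim1* and *Prim2* 1.69 and 1.60.

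The clamp, its loader and RPA had 422 CPM in zero and 731 CPM in high nuclei, a ratio of 1.73 (1.67 to 1.80). *Pcna*, the sliding clamp that holds polymerases on DNA, had 117, 198 and 231 CPM. The loader that opens and closes the clamp has 5 subunits, and their genes were not level with each other. *Rfc5* had 15.0, 26.5 and 39 CPM (ratio 2.60, 2.13 to 3.20) and *Rfc4* 36.1, 70.1 and 80.9 CPM (ratio 2.24, 1.97 to 2.56), whereas *Rfc2*, *Rfc3* and *Rfc1* had ratios of 1.60, 1.58 and 1.31. In nuclei with at most 5% mitochondrial UMIs the ratio of *Rfc5* was 1.76. The RPA subunits coat single-stranded DNA at the fork. *Rpa2* had 18.9, 41.1 and 44 CPM (ratio 2.33, 1.95 to 2.80) and *Rpa1* a ratio of 1.44.

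The 3 genes of nucleotide supply all passed 2 and had the largest summed ratio of the 8 roles, with 130 CPM in zero and 362 CPM in high nuclei (2.78, 2.60 to 2.98). *Rrm2*, the small subunit of ribonucleotide reductase, had 30.9, 90.8 and 118 CPM, a ratio of 3.81 (3.32 to 4.39). *Rrm1*, the large subunit, had 61.6, 118 and 166 CPM, a ratio of 2.69 (2.44 to 2.98). *Tyms*, which encodes thymidylate synthase, had 37.5, 65.2 and 78.4 CPM, a ratio of 2.09 (1.84 to 2.38). In all 3 genes the level was higher in intermediate than in zero nuclei and higher again in high nuclei.

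Of the 4 genes of S-phase entry and chromatin, *Uhrf1*, whose protein binds newly copied DNA that carries methyl groups on 1 strand, had 57.3, 135 and 130 CPM and a ratio of 2.27 (2.05 to 2.52), which was 1.32 with nuclei thinned before grouping. The cyclin E genes, whose proteins drive the step from G1 into S, had ratios of 1.63 for *Ccne2* and 1.31 for *Ccne1*. *Dtl*, which encodes the ligase subunit that marks Cdt1 for destruction during S phase, had a ratio of 1.40.

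Single nuclei of the groups overlapped widely. After thinning to 5000 UMIs, a zero nucleus held a median of 9 UMIs of the 44 genes (range 0 to 37), an intermediate nucleus 16 (0 to 50) and a high nucleus 17 (1 to 53), and a median of 8, 12 and 13 of the genes were detected. Of 633 zero nuclei, 150 (23.7%) were at or above the median of high nuclei, and 464 of 5299 high nuclei (8.76%) were at or below the median of zero nuclei.

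**Figure D2:**
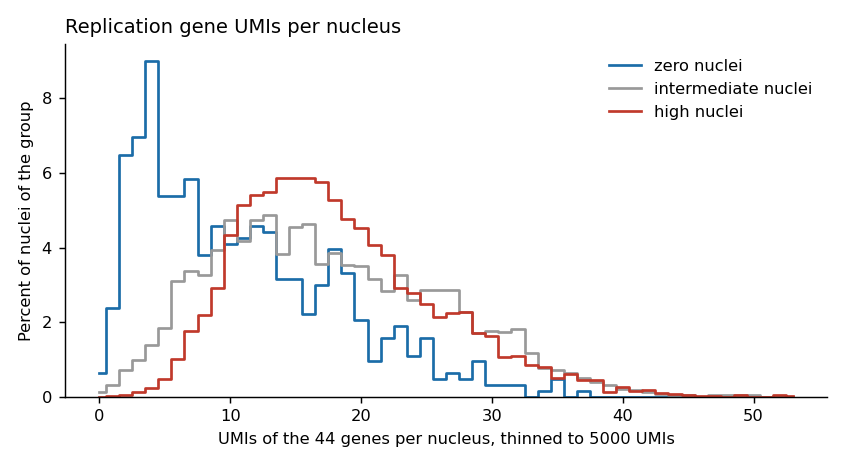
UMIs of the 44 genes per nucleus after thinning to 5000 UMIs, as the percent of the nuclei of each group. Zero nuclei pile up below their median of 9, most often at 4 UMIs, with a long right side up to 37 UMIs. High nuclei centre on 17.

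To describe that spread, the zero nuclei were split by 38 other replication genes that are not among the 44, a division chosen after the values above were seen. The 217 zero nuclei with at most 5 UMIs of those genes had 985 CPM of the 44 genes (927 to 1046), a median of 4 UMIs per nucleus. The 216 zero nuclei with at least 12 UMIs of them had 3606 CPM (3494 to 3722), a median of 18, close to the 3651 CPM of thinned high nuclei. The ratio between these zero nuclei was 3.66 (3.42 to 3.92), and high nuclei were 1.01-fold (0.98 to 1.05) above the upper ones and 3.71-fold (3.49 to 3.94) above the lower ones. The split itself used genes of the same process, so part of the gap between the lower and upper classes follows from the selection. High nuclei were not selected in this way. The ratios of high to upper zero nuclei, 1.01 included, therefore also depend on the limit of 12 UMIs. They do not show that such zero nuclei match high nuclei. *Orc4* stayed level at 60.8 and 57.4 CPM. *Cdc6* had 2 UMIs (1.84 CPM) in the lower and 54 UMIs in the upper class, and *Rrm2* 7.37 and 79.6 CPM. The ratio of high to upper zero nuclei was above 1 for 19 of the 44 genes, against 48.9% of all genes, and the median was 0.99 for both. Its lowest values were those of *Orc3*, with 70.4 CPM in upper zero and 45.9 CPM in high nuclei (0.65, 0.52 to 0.83), and *Cdc6*, with 50 and 33.7 CPM (0.67, 0.51 to 0.91). Its highest values were those of *Gins4*, with 20.4 and 40.6 CPM (interval 1.31 to 3.20), *Cdc45*, with 28.7 and 52.7 CPM (1.83, 1.29 to 2.71), and *Mcm10*, with 28.7 and 49.0 CPM (1.71, 1.20 to 2.52).

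The genes did not follow *Top2a* and *Mki67* in proportion. With nuclei thinned to 5000 UMIs and placed in 6 classes by the sum of the *Top2a* and *Mki67* UMIs (0, 1, 2, 3 to 4, 5 to 9 and 10 or more), the 44 genes together had 2655, 3410, 3679, 3913, 3698 and 3471 CPM. The peak was thus in the fourth class, and the last class was 1.31-fold (1.28 to 1.33) above the first. Class 3 to 4 held the highest level of 21 of the 44 genes, against 14.3% of all genes with 50 or more UMIs, class 2 of 10, against 19.3%, and the last class of 6, against 18.1%. The 6 genes were *Rrm1*, *Rrm2*, *Prim1*, *Rfc2*, *Gins3* and *Gins4*. *Rrm1* went from 90.2 CPM in the first to 205 CPM in the last class and *Rrm2* from 47.7 to 134 CPM. *Cdc6* in contrast was 34.9 CPM in the first class, 56.6 in the third and 28.2 in the last, and *Ccne2* was 25.8, 47.1 in the fourth and 27.2. The MCM2-7 genes had 590 CPM in the first, 825 in the fourth and 641 CPM in the last class. The classes hold from 753 to 2767 nuclei.

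**Figure D3:**
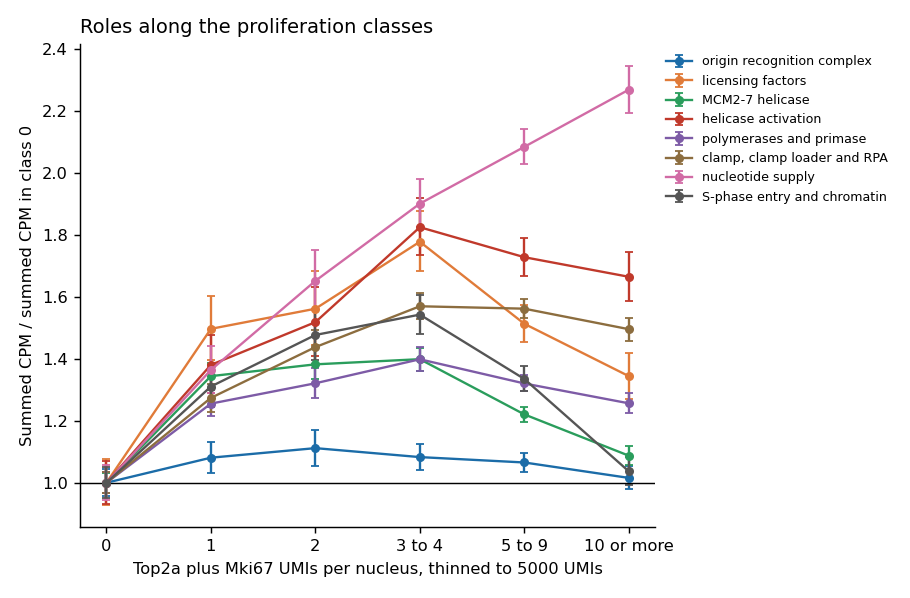
Summed CPM of each role relative to nuclei with no *Top2a* or *Mki67* UMI, by the sum of those UMIs after thinning to 5000 UMIs, with exact 95% Poisson intervals of each class as bars. Nucleotide supply keeps climbing to the last class, the origin recognition complex stays near 1, and the other roles are highest at 3 to 4 UMIs.

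The position in the cell cycle was then read from genes outside the 44. Of the 8760 thinned nuclei, 767 formed a histone-rich class, with at least 19 UMIs of 66 replication-dependent histone genes and fewer than 26 of the mitotic genes, and 779 formed a mitotic class, with at least 26 UMIs of 16 mitotic genes. Histone genes of this kind are expressed while DNA is copied. The classes are ranges of a score, and 124 and 108 nuclei lay exactly at those limits and 156 and 123 lay 1 UMI below. Most nuclei of both were high nuclei, 720 and 736, and *Mki67* had 757 and 693 CPM in them. A class without any histone or mitotic UMI had only 31 nuclei and is not compared.

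The 44 genes together had 4265 CPM in histone-rich and 2672 CPM in mitotic nuclei, a ratio of 1.60 (1.56 to 1.64). The level was higher in the histone-rich class for 41 genes, against 47.1% of 10211 genes with 50 or more UMIs over both classes together, and at least 1.5-fold higher for 27 genes, against 6.22%. None was 1.5-fold lower, against 4.59%. The cyclin E genes showed the widest gap, with 32.6 against 6.16 CPM for *Ccne1* (5.29-fold, 3.40 to 8.56) and 45.1 against 8.99 CPM for *Ccne2* (5.02-fold, 3.47 to 7.44). They were followed by *Cdc6*, with 37.5 against 13.9 CPM (2.71-fold), *Pcna*, with 340 against 129 CPM (2.63-fold, 2.37 to 2.92), and *Pold3*, with 72.2 against 31.8 CPM (2.27-fold). *Cdc45* and *Rrm2*, which led between high and zero nuclei, had ratios of 1.83 and 1.86 here. *Mcm10*, *Gins1* and *Pole2* had intervals that held 1, as had *Orc1* (0.93), *Orc2* (0.99) and *Orc3*. *Orc4* was the only one of the 44 genes whose interval lay below 1, with 47.7 against 64.2 CPM (0.74, 0.61 to 0.90).

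**Figure D4:**
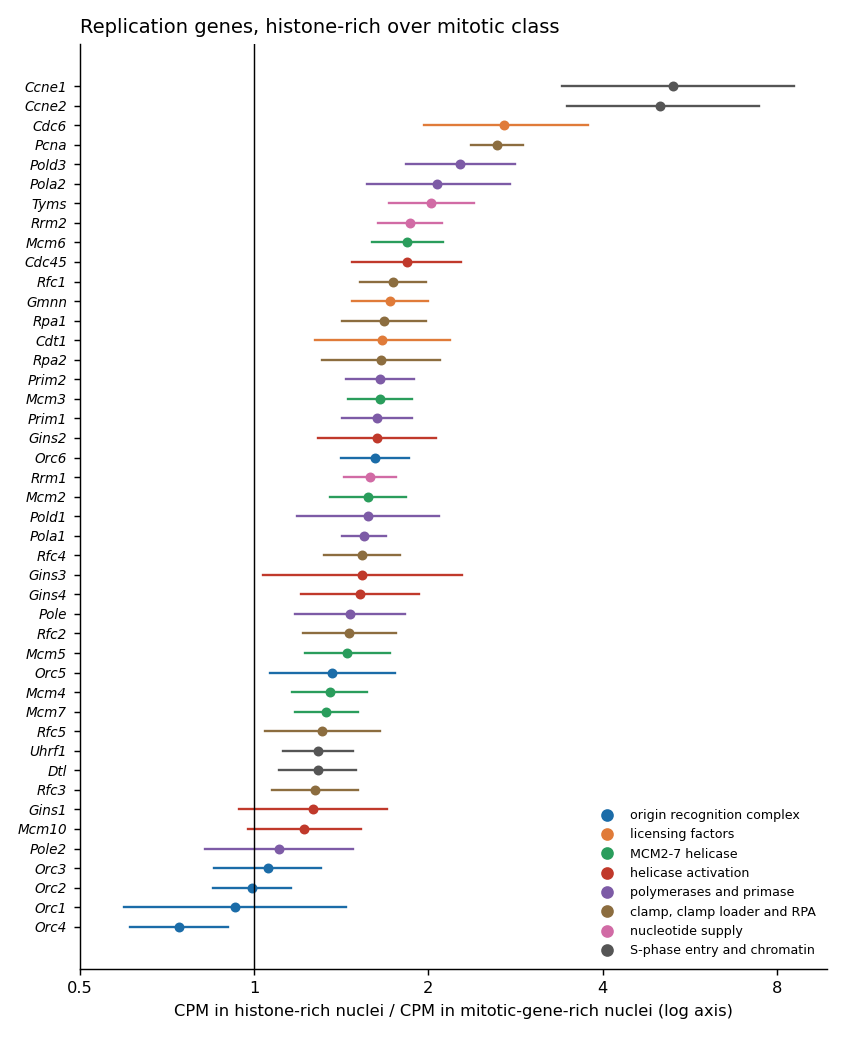
CPM in histone-rich nuclei over CPM in mitotic nuclei for the 44 genes, sorted, on a log axis, with exact 95% intervals of counting error and colors for the roles. *Ccne1* (5.29) and *Ccne2* (5.02) stand apart at the top, and *Orc4* (0.74) is at the bottom with its interval below 1.

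Clustering of the nuclei gave 8 clusters, numbered from 0 by size, whose defining genes are not results. The clusters were made from the same counts, and the 44 genes were not removed first. Levels, counts and ratios by cluster are therefore a description, and the shares over all genes beside them are no independent measure. The 44 genes had between 2574 CPM in cluster 4 and 3859 CPM in cluster 6. High nuclei made up their largest share in cluster 6 (94.8%). Cluster 5 (86.7%, with 3384 CPM of the 44 genes) and cluster 4 (83.9%) followed. Cluster 0, with 54.6% high nuclei, was level with cluster 6, at 3855 CPM (3831 to 3879) against an interval of 3823 to 3894. The highest level was thus not particular to clusters rich in high nuclei. In cluster 4, 25 of the 44 genes had their lowest level, against 10.8% of genes with 1000 or more UMIs. With fewer clusters, at a resolution of 0.4, no cluster was as low as cluster 4. The cluster richest in high nuclei there (89.9% of 2238 nuclei) had 3147 CPM of the 44 genes. The lowest level at that resolution, 2931 CPM, was in a cluster of 183 nuclei of which 40.4% were high nuclei. All remaining clusters were higher, from 3356 to 3859 CPM. The highest level at that resolution, 3859 CPM, was in a cluster with 55.5% high nuclei. *Ccne1* was at 5.78 CPM and *Ccne2* at 9.82 CPM in cluster 4, against 41.1 CPM for *Ccne1* in cluster 1 and 49.1 CPM for *Ccne2* in cluster 6. Within the 4 largest clusters, high nuclei had more of the 44 genes than zero nuclei by 1.85-fold in cluster 0, 1.21-fold in cluster 1, 2.15-fold in cluster 2 and 1.87-fold in cluster 3. The 186, 108, 190 and 122 zero nuclei behind these ratios are few for single genes. At least 2-fold higher were 21, 8, 29 and 18 of the 44 genes, against 5.96%, 5.62%, 3.44% and 5.79% of all genes. Cluster 1, where the ratio was lowest, is also the cluster with little *Pdgfra* (19.4 CPM) and much *Egfr* (236 CPM). *Cdc45* was higher in high nuclei in each of the 4 clusters, by 6.96, 2.78, 4.99 and 3.92-fold, and *Rrm2* by 4.65, 2.19, 5.73 and 4.85-fold.

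*Prim1*, the small catalytic subunit of primase, which makes the RNA primers of both strands, had a level in cluster 3 that none of the other clusters approached, and it is named for that after its values were seen. It had 193 CPM in the 1340 nuclei of cluster 3 and from 54.1 to 95.3 CPM in the other 7 clusters. The difference was there in zero nuclei, with 118 CPM (97.4 to 141) in cluster 3 and 43.6 CPM (38.3 to 49.4) elsewhere, and in high nuclei, with 201 and 78.8 CPM. *Prim1* lies at chr10:127851031-127867682 of GRCm39 on the plus strand. Its neighbours were read in the same way, with each gene's CPM in cluster 3 divided by its CPM in all other nuclei. *Prim1* had a ratio of 2.56. The gene and the cluster were chosen for this ratio, so the counts of neighbours are a description. Of 19 genes that start within 1000 kb before *Prim1*, 16 were over 1.5-fold higher in cluster 3, with a median ratio of 2.14 (range 1.17 to 6.66), against 5.40% of all genes with 1000 or more UMIs. *Cdk4*, which encodes a cyclin D-dependent kinase, was among them with 711 CPM in cluster 3 and 306 CPM elsewhere. Of the 29 genes that start within the same distance after *Prim1*, 25 were over 1.5-fold lower in cluster 3, with a median ratio of 0.56 (range 0.11 to 2.11), against 8.21% of all genes. The other 4 were the nearest gene, *Naca*, which starts 20.3 kb after the start of *Prim1* and was higher in cluster 3, with 1544 and 733 CPM, the next gene, *Ptges3*, at 43.8 kb with a ratio of 0.93, and *Cnpy2* (0.74) and *Smarcc2* (0.68). DNA of these nuclei was not analysed here.

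**Figure D5:**
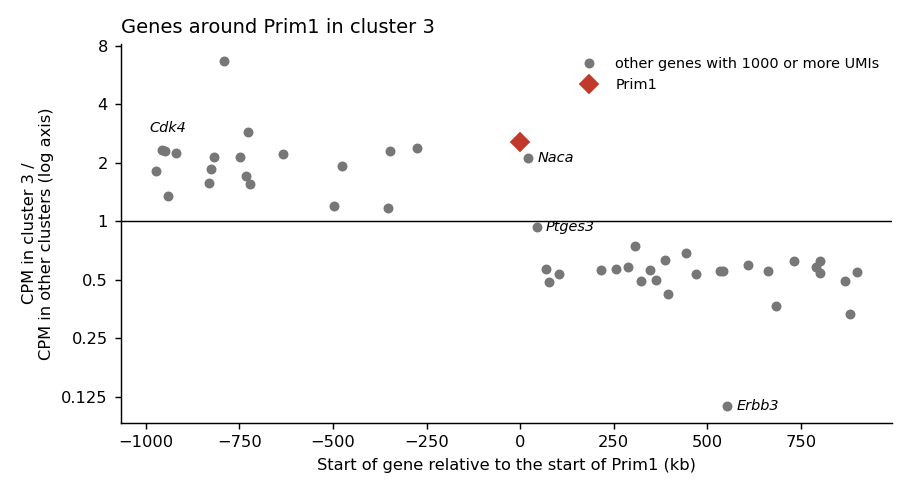
Ratio of CPM in cluster 3 to CPM in all other nuclei, on a log axis, for genes with 1000 or more UMIs by the distance of their start from the start of *Prim1*. All plotted genes before *Prim1* (2.56) and *Naca* (2.11) just after it lie above 1, and the plotted genes from *Ptges3* (0.93) on lie below 1.

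Other genes of the same process that are not among the 44 gave a similar count. Of 38 such genes, 14 were at least 2-fold higher in high nuclei, 36 had a ratio above 1, and the median ratio was 1.61, against 4.14%, 44.6% and 0.97 over all genes. The largest 5 were *Recql4*, a DNA helicase (4.83, 2.87 to 8.88), *Dbf4*, the activating subunit of the kinase that fires origins (4.82, 4.13 to 5.66), *Chtf18*, of an alternative clamp loader (4.70, 2.84 to 8.43), *Pclaf*, which binds the clamp (4.41, 4.05 to 4.81), and *Asf1b*, a histone chaperone (4.19, 3.16 to 5.68). *Pold4*, the smallest subunit of polymerase delta, was the only one at least 1.5-fold lower, with 10.0 CPM in zero and 6.64 CPM in high nuclei (0.66, 0.51 to 0.86).

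Of 13 genes of E2F factors, their partners and the pocket proteins, 4 were at least 2-fold higher in high nuclei, against 4.14% of all genes. *E2f8* and *E2f7*, which encode repressors of the family, had 11.5 against 49.2 CPM (4.26-fold, 3.41 to 5.41) and 9.90 against 40.4 CPM (4.08-fold, 3.20 to 5.29). *E2f2*, an activator, had 6.45 against 20.3 CPM (3.14-fold), and *Rbl1*, a pocket protein, 26.1 against 53.5 CPM (2.05-fold). *E2f1*, *E2f5*, *Rb1*, *Tfdp1*, *E2f3* and *Tfdp2* had ratios of 1.81, 1.40, 1.37, 1.31, 1.28 and 1.23, *Rbl2* and *E2f4* 1.12 and 1.04 with intervals that held 1, and *E2f6* 0.84 (0.72 to 0.99). For comparison, all 16 mitotic genes were at least 2-fold higher in high nuclei, with a summed ratio of 9.73 against 1.66 for the 44 replication genes. In thinned nuclei the mitotic genes rose with the *Top2a* and *Mki67* UMIs, from 511 CPM with 0 to 3826 CPM with 10 or more. Those UMIs define the groups, so the larger mitotic ratio is partly built into the grouping. The 66 replication-dependent histone genes rose over the same classes as well, from 747 CPM with 0 to 2637 CPM with 10 or more. Unlike the 44 genes together, they had no peak at 3 to 4 UMIs. Their summed ratio of high to zero nuclei was 2.69 (2.61 to 2.76).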

How the data were processed

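The authors prepared nuclei of cultured BB-p53n OPCs with a 10x 3' gene expression kit, aligned reads and called barcodes with Cell Ranger 8.0.1 on mm39 with 15000 expected cells, and deposited the table of raw counts, 1 UMI count for each gene in each barcode, without normalization. Annotation was GENCODE vM39 on GRCm39, the same build, which matched 33185 of 33696 identifiers.

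Nuclei with 2000 to 8000 detected genes were kept, and counts were summed over nuclei and divided by total UMIs (CPM). Ratios carry exact conditional intervals and levels exact Poisson intervals at 95%. A gene was counted with 50 or more UMIs over both groups. Thinning drew 5000 UMIs without replacement from each nucleus. Clusters were made in Seurat 5.3.0 (R 4.3.3) at a resolution of 1.0 from 200 neighbors on the first 20 principal components of 3000 variable genes, after log normalization to 1000 and regression on totals. Intervals and ratios were tested on simulated Poisson counts, which do not hold the spread between nuclei. No doublet caller was run and no nuclei were removed as doublets. Motifs were searched from the start of the canonical transcript. Other steps used Python 3.11.15, numpy 2.4.6, scipy 1.17.1 and pandas 2.3.3.

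The genes and lists were chosen with earlier results of these data known. Named by rule were the 12 highest and 8 lowest ratios of the 44 genes, up to 5 genes with the widest gap between the histone-rich and mitotic classes in each direction, the 5 highest other replication genes, and all E2F and pocket protein genes. Other members are named to account for all 44, after their values were seen. Alternatives were other limits on barcodes, genes, mitochondrial share, UMIs and *Top2a* and *Mki67* counts, thinning, *Pdgfra* status, other totals, folds, class limits and cluster resolution. The 7 samples listed include 6 tumor-bearing brain samples, which were not analysed here.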

Additional observations from a re-analysis of the deposited data

How the results depend on the processing

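The ratio of the summed level of the 44 genes, 1.66, was 1.63 with all deposited barcodes, 1.72 in nuclei with at most 5% mitochondrial UMIs, 1.63 with 5 or more UMIs of *Top2a* and *Mki67*, 1.36 with nuclei thinned before grouping, 1.86 in nuclei of 10000 to 20000 UMIs, 1.70 without the 10% of nuclei with the most UMIs, and 1.71 and 1.61 in nuclei with and without a *Pdgfra* UMI. The ratios of 3.71 against the lower and 1.01 against the upper zero nuclei are no alternatives to 1.66. Those zero nuclei were selected by other replication genes, in a split chosen after seeing the data. The number of genes at least 2-fold higher, 14, was 7 after thinning before grouping, and 26 genes passed 1.5-fold. The ratio of the last to the first *Top2a* and *Mki67* class, 1.31, was 1.66 without thinning, the histone-rich to mitotic ratio, 1.60, was 1.64 with the top 5% of nuclei, and the highest to lowest cluster ratio, 1.5, was 1.32 at a resolution of 0.4. The shares with a *Cdc45* UMI, 6.95% and 22.2%, were 3.29% and 14.6% at 3000 UMIs and 10.6% and 56.3% without thinning. The cause of these differences was not tested.

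Of 528 ratios of single genes under 12 alternatives, 440 stayed inside the interval of the value in the report and 503 were above 1, and no gene that was past 2-fold changed direction. Of the 44 genes, 38 were above 1 under each of these settings. The exceptions were *Orc3*, *Orc4*, *Orc5* (0.97), *Cdc6* (0.82) and *Mcm6* (0.98), the last 3 with nuclei thinned before grouping, and *Orc1* (0.76) without a *Pdgfra* UMI. *Cdc45*, *Rrm2*, *Mcm10* and *Gmnn* were the 4 leading genes in 7 of the 12 alternatives. No paired analysis was possible because the values come from 1 library and from no test. Few UMIs limit some ratios, since *Gins3* rests on 41 UMIs in zero nuclei and *Pold1* on 67.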

Other observations

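The levels of 43 of the 44 genes in the 8 clusters were set beside those of their 10 nearest neighbours on each side with 1000 or more UMIs, a comparison chosen after the data were seen. *Rfc3* was left out because it has fewer neighbours on 1 side. Of 344 pairs of gene and cluster, *Prim1* in cluster 3 included, 27 were past 1.5-fold against the rest of the nuclei, against 14.1% of all pairs with 1000 or more UMIs, and 14 of them were in cluster 4, where 11.7% of all genes were past 1.5-fold. The lowest ratios were in cluster 4. *Ccne1* had 0.23 there, and the median of its neighbours was 0.91 before and 0.99 after it. *Ccne2* had 0.27, with 1.14 before and 1.04 after it, and *Cdc6* had 0.35, with 1.07 and 0.93. *Rrm2* had 0.43 in cluster 4, with 0.70 and 0.73, and 0.46 in cluster 2, with 0.71 and 0.72. The lowest ratio of a gene other than *Rrm2* outside cluster 4 was that of *Rfc5* in cluster 2, at 0.49, with 0.93 and 0.91. After *Prim1*, the highest ratio was that of *Ccne1* in cluster 1, at 2.13, with 1.39 before and 1.03 after it. *Orc1* in cluster 1, at 0.60, is named because its neighbours had a like ratio, 0.62 before and 0.65 after it. These ratios are descriptions of 1 library, with clusters made from the same counts, and what sets them was not tested.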
